A study of Arabidopsis thaliana with 4 samples.

Results

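The stretches described here are the places between genes where a TCP4 ChIP-seq summit stands close to both of its neighbours. A summit is the position of the highest signal of a peak. The members are the summits that lie outside every protein-coding gene and within 1000 bp of the ends of both flanking protein-coding genes, and they are called shared summits below. The word describes position only. They number 995 of the 7470 summits in the deposited list, or 13.3% (exact 95% interval 12.6 to 14.1%), and 18.9% (17.87 to 20.01%) of the 5259 summits outside genes. Their choice used positions alone and no signal value.

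TCP4 is a plant transcription factor of the CIN type of the TCP family, whose members restrain cell proliferation and promote differentiation in leaves and cotyledons. A transcription factor commonly binds short motifs in promoters, near the start of the gene it regulates. In the compact genome of Arabidopsis thaliana many neighbours are separated by a short gap, so that a bound position can lie beside the start of 1 gene and the end of the next, or between a pair of starts. ChIP-seq gives the position and not the gene on which the factor acts.

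The chromatin came from 4-day-old seedlings kept in the dark after 3 days of cold at 4 °C and 3 to 4 h of white light. The wild type Col carried no stated transgene, and the line labelled mTCP4 overexpressed TCP4. An anti-Myc antibody was used for 1 ChIP library of each genotype, and each genotype also had 1 input library, so no value below has a replicate error. The sources used here do not give the promoter that drives TCP4 in this line, or the number of lines or seedling pools. The list compares mTCP4 with Col, in coordinates of build TAIR10. Fold was deposited by the authors and is the ratio of the signal at the summit (pileup, a scaled number of fragments) to the local control level, which was recovered from pileup and fold. The sources used here do not say which library gave the pileup, or whether the control level came from the Col ChIP or from an input, so a fold is read here only as the value listed for mTCP4 against Col. Intervals of fold are exact 95% Poisson intervals of the fragments at the summit with the control level held fixed, and they cover counting error only. Shared summits rested on a median of 90 fragments, from 43 to 308, and the typical interval ended 19.3% under and 22.6% over the fold. With 1 library a group no test between genotypes was made.

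The most heavily enriched shared summit lay midway between AT1G52790 and AT1G52800 on chromosome 1, at position 19663657. It stood 356 bp from the first gene and 366 bp from the second, in a gap of 721 bp. The pileup was 227 over a control level of 12.9, which gave a fold of 16.4 (14.6 to 18.3), the highest of all 7470 summits. Neither gene has a name in the gene table.

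The next was between SAUR14 and SAUR15, members of the SAUR family of small auxin-induced proteins, many of which promote cell expansion. This summit, at position 18125796 of chromosome 4, stood 237 bp from SAUR14 and 261 bp from SAUR15. Its pileup was 189 over a control level of 14.2, a fold of 12.5 (11.0 to 14.1). The interval did not overlap that of the highest summit. In the whole list it ranked 11.

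In the gap of 1382 bp between NAPRT2, an enzyme of NAD salvage, and ICK1, an inhibitor of cyclin-dependent kinases also named KRP1, 2 shared summits were listed. The one at position 9976129 of chromosome 2 was 461 bp from ICK1 and 922 bp from NAPRT2, with a pileup of 162 over 12.9 and a fold of 11.7 (10.2 to 13.4). The other, at 9975656, was 449 bp from NAPRT2 and 934 bp from ICK1, with a fold of 3.11 (2.49 to 3.84). The stronger summit thus stood closer to ICK1, and the intervals of both were apart.

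Positions of the other 9 among the 12 highest differed widely. The summit between AT3G13840 and AT3G13845, with a fold of 11.5 (9.98 to 13.1), lay 193 and 118 bp from them in a gap of only 310 bp. PRK6, a receptor kinase of pollen tubes, lay 650 bp from a summit with a fold of 10.7 (9.24 to 12.2), and AT5G20700 lay 242 bp from it. A summit between AT2G36770 and AT2G36780 had a fold of 10.3 (8.95 to 11.9) and was 38 bp from the former. In the last of these the other gene was 481 bp away.

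DOF1, a DOF zinc finger transcription factor gene, and UBP6, which encodes a ubiquitin-specific protease, flanked a summit with a fold of 10.1 (8.93 to 11.4), at 153 and 228 bp. PRR9, a pseudo-response regulator of the circadian clock, had a summit with a fold of 10.1 (8.82 to 11.4) at 145 bp, and the neighbour AT2G46780 was 923 bp from it. The summit between AT3G19000 and AT3G19010 had a fold of 9.65 (8.35 to 11.1), and a weaker one in the same gap had 2.70 (2.03 to 3.53). Apart from these, the 12 held summits beside SEOR1, a phloem filament protein gene (9.47), BEH3, a homologue of the brassinosteroid factor BES1 (9.32), and ZFP8, a zinc finger gene of trichome formation (9.05). ZFP8 was 312 bp from its summit and its neighbour AT2G41945 was 141 bp from it, so the gene with a known role was the farther of the pair.

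**Figure D1:**
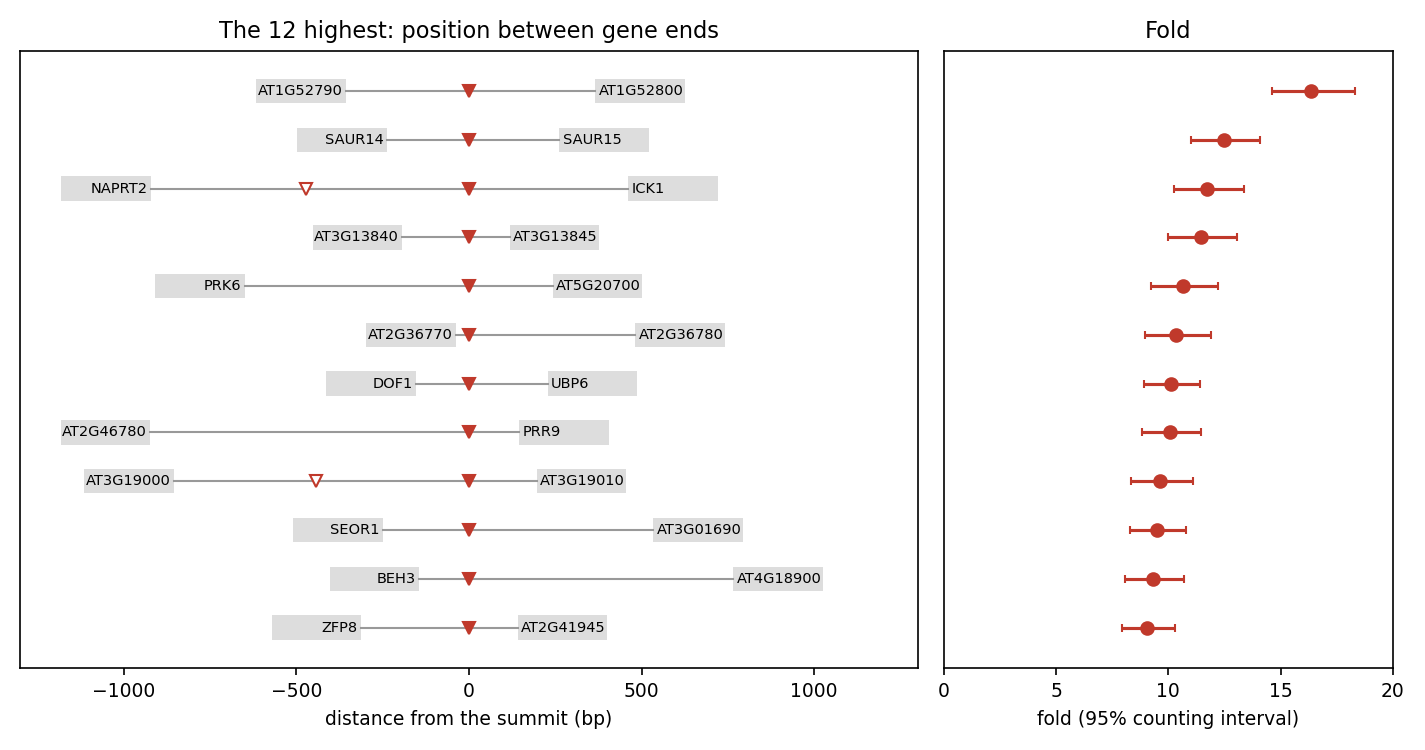
The 12 shared summits with the highest fold. Left, each summit (filled triangle, at 0) between the ends of its flanking genes, with any other shared summit of the gap as an open triangle. The x axis is distance in bp, and grey boxes mark only where the edge of a gene lies, not its length or direction. Right, fold with its exact 95% Poisson interval of counting error. Folds run from 9.05 to 16.4, and the nearer gene end lies 38 to 461 bp away.

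Shared summits were dense for the space they had. Positions that the rule allows make up 7.24 Mb, or 6.08% of the span between the first and the last protein-coding gene of each chromosome, and held 13.3% of the summits. That was 137 summits per Mb (exact Poisson 95% interval 129 to 146), against 62.7 per Mb (61.3 to 64.1) over the whole span. Positions outside genes within 1000 bp of 1 gene only held 139 per Mb (133 to 145), and the interval overlapped that of shared positions. Positions farther than 1000 bp from any gene held 62.4 per Mb (59.6 to 65.3) and gene bodies 34.3 (32.9 to 35.8). Whether the neighbours within 1000 bp were both or 1, the densities were thus not apart.

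The control level moved with these classes. Its median was 17.5 at shared summits, 16.3 at summits near 1 gene only, 15 at distal summits and 17 in gene bodies. Of the shared summits, 10.9% were at the lowest control level of 12.9, against 18.2% of those near 1 gene and 28.9% of distal ones. Counting only summits at that level, but all positions, the density in shared positions was 1.30 times that of the whole span. All summits gave 2.19 times. The lower value restates the shares at that level, 10.9% of shared and 18.3% of all summits. Control levels are known only at summits, so positions could not be restricted in the same way. The part of the control level in the density was not tested.

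**Figure D2:**
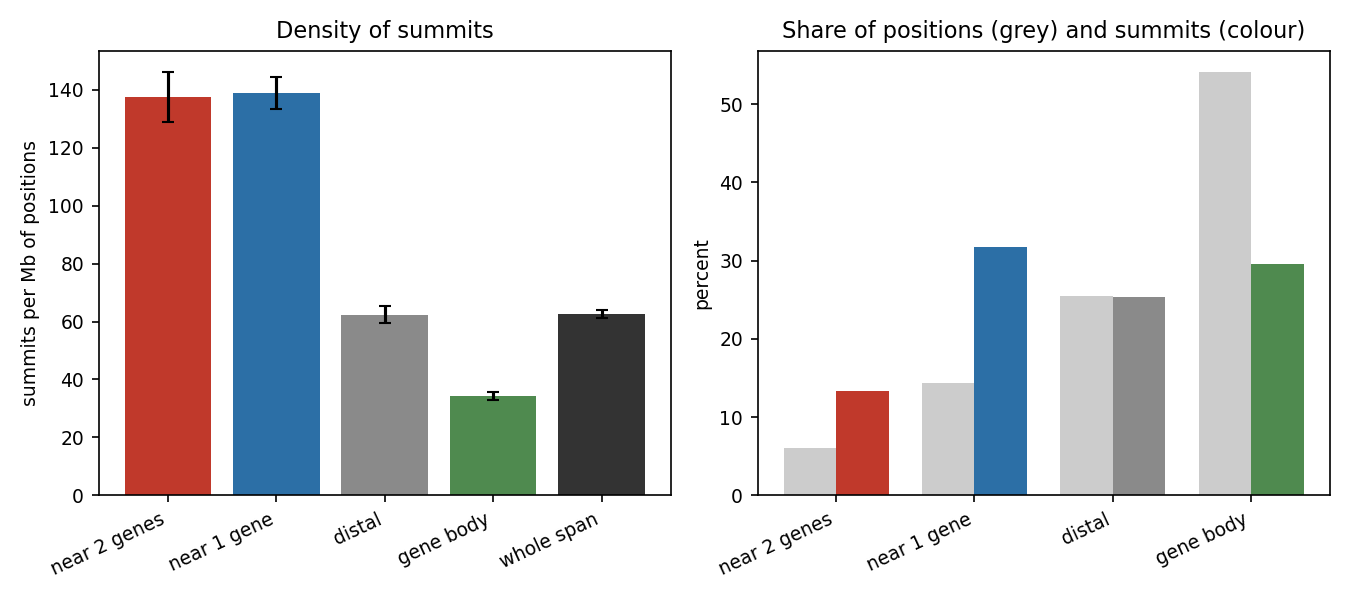
Left, summits per Mb of positions near both flanking genes, near 1 gene only, beyond 1000 bp of any gene, in gene bodies and over the whole span, with exact 95% Poisson intervals. Right, the share of positions (grey) and of summits (colour) in percent. Positions near both genes hold 6.08% of positions and 13.3% of summits.

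Closest to the gene ends the classes near genes differed. Within 100 bp of the nearer end, shared positions held 135 summits per Mb (120 to 152), from 281 summits, and positions near 1 gene only held 176 per Mb (159 to 195). These intervals were apart. From 200 to 500 bp the densities were 123 (110 to 138) and 114 (105 to 123), and from 500 to 1000 bp they were 150 (128 to 175) and 138 (130 to 147), with overlapping intervals. Within 100 bp of an end, density was 114 per Mb (89.1 to 145) in gaps of up to 250 bp. It was 144 (115 to 178) from 250 to 500 bp and 144 (119 to 172) from 500 to 1000 bp. Gaps of 1000 to 2000 bp had 159 (134 to 187). The highest value was 193 (162 to 228) from 2000 to 4000 bp, and longer gaps had 177 (145 to 215). The intervals of gaps up to 250 bp and of 2000 to 4000 bp did not overlap. Summits are not replicates, so no test was made of these differences.

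Of the 17270 gaps with a position that the rule allows, 896 (5.19%) held a shared summit. The share was 1.27% in gaps of up to 250 bp, 4.95% from 250 to 500 bp, 8.25% from 500 to 750 bp and 10.2% from 750 to 1000 bp. It was 10.04% from 1000 to 1250 bp, and then dropped to 2.33% in gaps over 1750 bp, in which few positions are within 1000 bp of both ends. Per Mb of allowed positions the values stayed between 117 and 183 with overlapping neighbours, from 117 (91.8 to 147) in gaps of up to 250 bp to 183 (114 to 280) in the longest. The share of gaps thus varied far more with length than the density did.

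**Figure D3:**
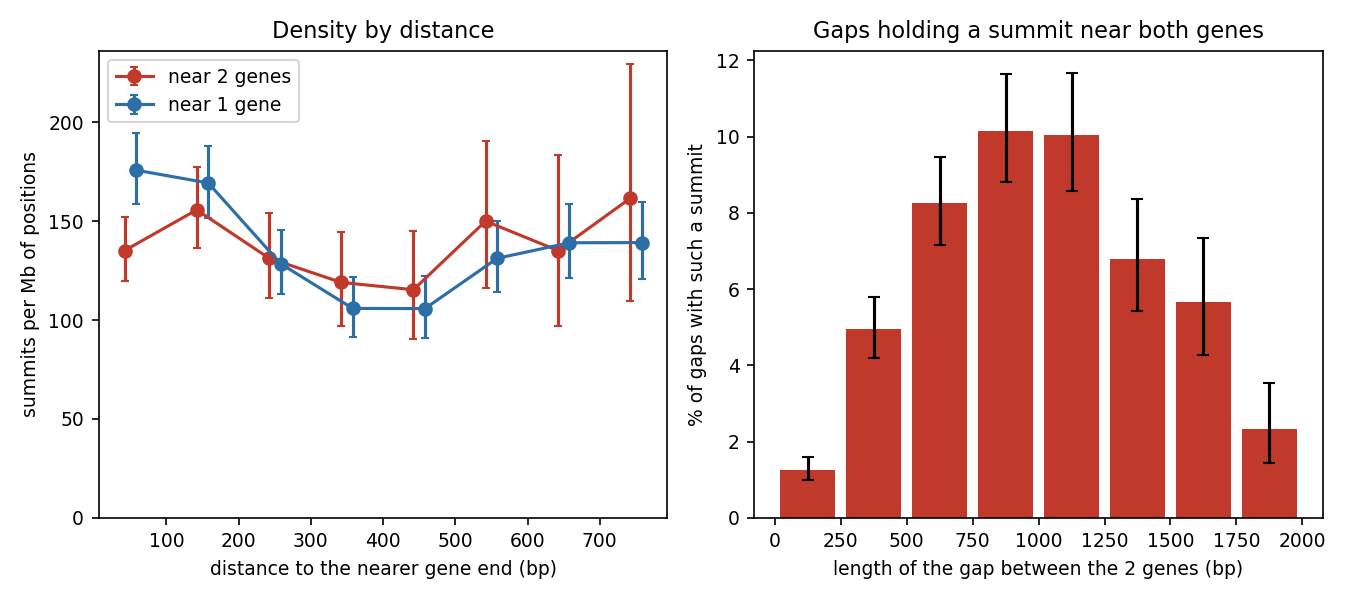
Left, summits per Mb of positions against distance to the nearer gene end, in bins of 100 bp up to 800 bp, for positions near both genes (red) and near 1 gene only (blue), with exact 95% Poisson intervals. The curves are apart in the first bin, 135 against 176 per Mb. Right, the percent of gaps with a shared summit by length of the gap, with exact 95% binomial intervals, highest at 10.2% from 750 to 1000 bp.

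The median shared summit lay 194 bp from the nearer gene end (quartiles 87 and 378 bp) and 604 bp from the farther one (quartiles 374 and 813 bp), in a gap of 824 bp. Within 500 bp of both ends lay 376 of them (37.8%), and within 200 bp of both 91 (9.15%). For 190 summits (19.1%) the distances to the flanking genes differed by 100 bp or less, so that naming the nearest gene rests on a small margin. In gaps of up to 1000 bp the 644 summits were spread over the gap. The outermost 10% of the gap on either side held 17.4% (14.5 to 20.5%) of summits and 19.8% of positions, the next 10% on either side 23.6% (20.4 to 27.1%) and 20.1% of positions, and the 10% on either side of the middle 18.0% (15.1 to 21.2%) and 20% of positions. Only in the second of these did the interval exclude the share of positions.

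The median fold of shared summits was near that of summits near 1 gene and in gene bodies, and below that of distal summits, with intervals apart. Their median fold was 3.33 (order-statistic 95% interval 3.21 to 3.44), with quartiles of 2.69 and 4.53, and ran from 1.67 to 16.4. Summits near 1 gene only had a median of 3.48 (3.41 to 3.57), distal summits 3.62 (3.54 to 3.72) and gene body summits 3.26 (3.20 to 3.34). A fold of 5 or more was found at 198 shared summits, 19.9% (17.5 to 22.5%), against 21.3% of all summits. The share was 22.8% (21.1 to 24.5%) near 1 gene only, 24.8% (22.9 to 26.8%) at distal summits and 17.3% (15.7 to 18.9%) in gene bodies. The median pileup pointed the other way, with 66.3 at shared summits and 63.4 near 1 gene only.

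At like control levels the median fold of shared summits and of those near 1 gene had overlapping intervals in each of the 6 ranges of control level compared. At the lowest range, up to 13, the medians were 3.62 (3.35 to 3.94) and 3.80 (3.67 to 3.94), and above 25 they were 2.80 (2.67 to 3.04) and 2.96 (2.79 to 3.10). Intervals of shared and distal summits overlapped in each range as well, with 3.78 (3.62 to 3.99) for distal summits up to 13. Over the 995 shared summits fold had a Spearman rho of -0.30 with the control level, which enters it as the denominator, and of 0.04 with the length of the gap and 0.05 with the distance to the nearer end. These correlations describe summits of a single list and carry no p.

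**Figure D4:**
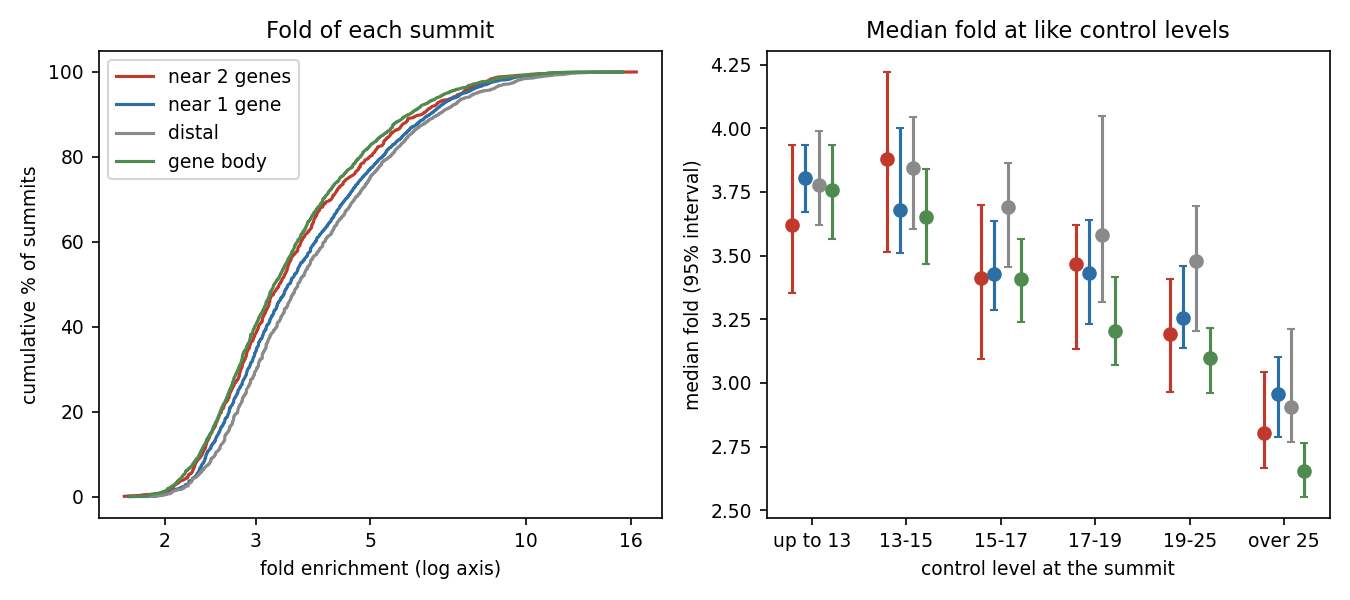
Left, the cumulative percent of summits against fold (log axis) for summits near both genes, near 1 gene only, distal and in gene bodies. Right, median fold with its 95% order-statistic interval in 6 ranges of control level. The red and blue intervals overlap in each range, and both medians are lowest above a control level of 25.

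A group of shared summits lay between genes that are relatives by name. Flanking genes were counted as a like pair where both belonged to 1 of the 24 families listed or where their symbols differed only in number. Of the 896 gaps with a shared summit 42 (4.69%, 3.40 to 6.28%) were of this kind, against 2.41% of all gaps that the rule allows and 2.29% (2.07 to 2.53%) of those without a shared summit. Among gaps of 250 to 1250 bp the shares were 4.33% (2.92 to 6.17%) with and 2.83% (2.47 to 3.22%) without a shared summit, and these intervals overlapped. Genes with only a locus number cannot be matched in this way. Among gaps with a name on both sides, like pairs made up 21.4% (15.9 to 27.8%) of the 196 with a shared summit and 14.3% (12.99 to 15.71%) of the 2620 without. At 250 to 1250 bp these shares were 21.0% (14.5 to 28.8%) of 138 and 17.8% (15.7 to 20.05%) of 1252, with overlapping intervals. How reads from near-identical copies were placed is not given in the sources used here, and its part in these values was not tested.

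The 49 summits of like pairs had folds from 2.23 to 12.5, with a median of 3.69 (3.28 to 5.01). The other 946 shared summits had a median of 3.32 (3.19 to 3.43), and the intervals overlapped. The control level was lower at like pairs, with a median of 15 against 17.8. Its part in the difference was not tested.

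There were 3 SAUR pairs among them. Besides SAUR14 and SAUR15, SAUR28 and SAUR27 flanked a summit with a fold of 4.57 (3.67 to 5.64) at position 980867 of chromosome 3, at 305 and 205 bp. A little farther along, at 982902, SAUR73 and SAUR26 flanked one with a fold of 2.60 (1.97 to 3.36), at 315 and 155 bp. The 3 summits thus differed in fold, and the interval of each lay apart from those of the others.

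Pairs of receptor kinases and membrane channels held 10 summits in 9 gaps, with folds from 2.50 to 8.49. The cyclic nucleotide-gated channel genes CNGC3 and CNGC11 stood 158 and 38 bp from a summit with a fold of 8.49 (7.23 to 9.90) in a gap of 195 bp. On the other side of CNGC11, towards CNGC12, a summit had a fold of 5.40 (4.69 to 6.19). The glutamate receptor-like channel genes GLR2.8 and GLR2.7 flanked a summit with a fold of 8.24 (7.03 to 9.61). Of the cysteine-rich receptor kinase pairs, CRK14 and CRK15 had a fold of 6.47, CRK21 and CRK22 6.21 and CRK2 and CRK3 3.48. WAKL7 and WAKL6 had 4.35, at a summit inside a tRNA gene. The lectin receptor kinase genes LECRKA4.1, LECRKA4.2 and LECRKA4.3 had the lowest values of the group, 2.50 to 3.22 at 3 summits.

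Detoxification and specialised metabolism gave 18 summits in 15 gaps, from 2.28 to 7.60. Highest was the summit between ELI3-1 and ELI3-2, alcohol dehydrogenase genes first found as induced by elicitors, with 7.60 (6.52 to 8.81). The glycosyltransferase genes UGT73B2 and UGT73B1 had 6.31 (5.27 to 7.49). Between the cytochrome P450 genes CYP71B22 and CYP71B23 there were 2 summits with 5.84 and 5.80, and between CYP71B23 and CYP71B3 another with 2.96. Glutathione S-transferase pairs were flanking 4 summits, with folds of 5.37 at GSTU24 and GSTU25, 4.07 at GSTF9 and GSTF10, 3.16 at GSTF6 and GSTF5 and 2.28 at GSTU4 and GSTU3. NIT2 and NIT1, nitrilases that can form auxin from indole-3-acetonitrile, enclosed 3 summits with 3.94, 5.01 and 5.08.

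Pairs of other kinds included the cold-induced genes KIN1 and KIN2, with a fold of 8.54 (7.38 to 9.83) at a summit 21 bp from KIN2, NHL2 and NHL1 with 7.16 (6.11 to 8.35) and the profilin genes PRF1 and PRF5 of the actin cytoskeleton with 6.37 (5.29 to 7.61). In the cell wall group CSLB03 and CSLB04, cellulose synthase-like genes, had 5.31 and 3.86 at 2 summits, the expansin genes EXPA25 and EXPA24 had 3.46 and the pectin methylesterase genes PME2 and PME1 2.42. The grouping by kind was made after the pairs had been seen.

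**Figure D5:**
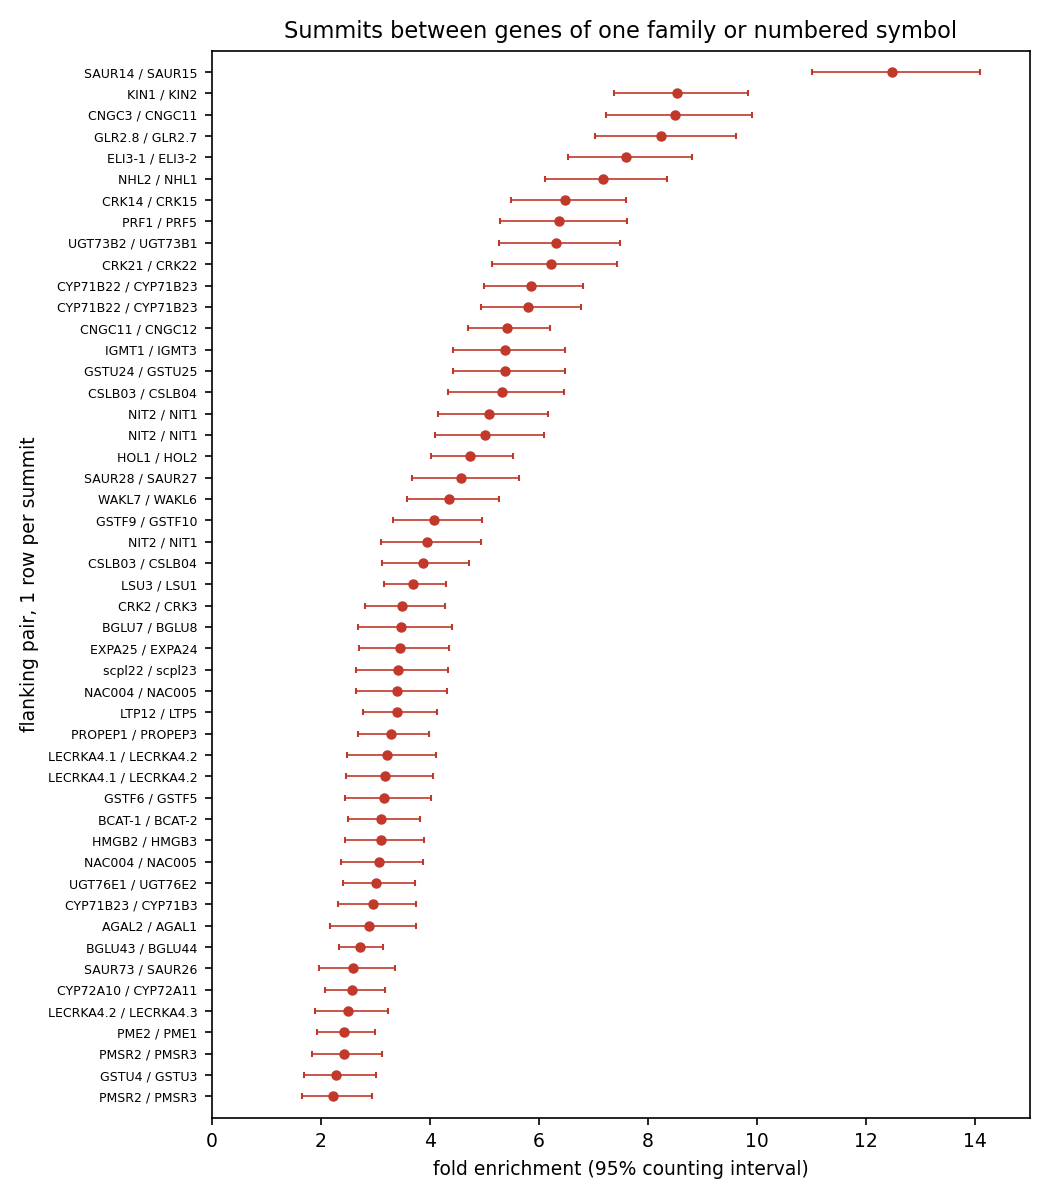
Fold of the 49 shared summits whose flanking genes belong to the same family or carry the same symbol with another number, 1 row per summit, with exact 95% Poisson intervals. SAUR14 / SAUR15 stands alone at 12.5, and the rest run from 8.54 to 2.23.

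In all, 1751 protein-coding genes flanked a shared summit, 6.38% of the 27444. Among the families this share was highest for the circadian clock, where 5 of 18 genes flanked one (27.8%, exact 95% interval 9.69 to 53.5%). Besides PRR9 these included CCA1, a MYB factor of the morning, 141 bp from a summit with a fold of 4.82 (4.08 to 5.65). That summit was also 309 bp from PSI-P, a thylakoid protein gene also named PSAP. PCL1, the evening gene also named LUX, was 264 bp from a summit with 4.52 (3.85 to 5.27), which lay closer, at 218 bp, to AT3G46630.

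TCP genes flanked shared summits in 5 of 22 cases (22.7%, 7.82 to 45.4%). The class I gene TCP7 was 600 bp from a summit with a fold of 5.45 (4.63 to 6.38), TCP8 299 bp from one with 5.10 (4.14 to 6.22) and the CIN-type gene TCP17 592 bp from one with 3.83 (3.01 to 4.81). In the B-box family 7 of 31 genes did (22.6%, 9.59 to 41.1%), with BBX14 (7.23), BBX17 (6.28) and bbx23 (4.68) highest. BBX14 was 755 bp from the summit with 7.23, and AT1G68526 was closer to it, at 125 bp. BBX17 and bbx23 were the nearer of their pair. No PIF gene (0 of 8), no SPL gene (0 of 16) and none of the growth-regulating factors and AN3 (0 of 12) flanked a shared summit. Only 3 of the 8 PIF genes, 11 of the 16 SPL genes and 8 of the 12 others border a gap in which the rule could be met.

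Among auxin genes, 10 of 80 SAUR genes (12.5%, 6.16 to 21.8%) flanked 7 shared summits, with SAUR78 at 7.72 (6.58 to 9.0) after the SAUR14 and SAUR15 summit. Of the Aux/IAA repressors 2 of 29 did, ATAUX2-11 (also IAA4) with 5.73 and IAA11 with 5.71, and of the auxin response factors 2 of 23, ARF9 with 3.16 and ARF11 with 2.68. Of the 24 families, the clock, TCP and B-box lists had an interval wholly above the 6.38% of all genes. The intervals of the others, SAUR included, took it in. All these intervals treat genes as separate, though 3 of the 7 SAUR summits lay between a pair of SAUR genes and counted for both. Among only the genes that border a gap in which the rule could be met, 7.56% flanked a shared summit. On that base the shares were 17.2% of 58 SAUR, 31.25% of 16 clock, 33.3% of 15 TCP and 28% of 25 B-box genes. MYB genes (6.41% of 78) and WRKY genes (4.17% of 48) were below 7.56%. Intervals were not computed on that base, so the reading of the SAUR interval above holds only for the base of all genes. Gibberellin genes had 3 of 24, namely ATGA2OX1 (also GA2OX1), which inactivates gibberellin, with 7.34 (6.25 to 8.57), and the DELLA repressors RGL3 with 3.85 and GAI with 2.26. Of the ethylene genes 2 of 27 did, the ethylene-forming enzyme EFE (also ACO4) with 5.10 and ACS4 with 4.31. Of the cytokinin response regulators 2 of 24 did, RR16 (also ARR16) with 7.71 (6.59 to 8.96) and RR20 (also ARR20) with 2.89, and of the jasmonate repressors 2 of 12, TIFY7 (also JAZ9) with 3.16 and TIFY10B (also JAZ2) with 2.83. The summits named for ATAUX2-11, IAA11, ARF11, EFE, RR20 and TIFY10B lay closer to the other flanking gene. EFE was 824 bp away against 297 bp for AT1G05005, and RR20 969 bp against 594 bp for GATL7.

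Large transcription factor families had shares whose intervals took in that of all genes. The counts were 8 of 100 for NAC, 5 of 125 for MYB, 2 of 71 for WRKY, 5 of 79 for homeobox and 5 of 51 for ERF and DREB genes. Their highest folds were at BLH7, a BEL1-like homeobox gene (8.44), ERF8 (6.82), HB6 (5.47), NAC096 (5.47), MYB16 (4.88), NAP (4.70) and LAF1 (4.48). Next came NAC071 (4.30), BLH6 (4.05), WRKY27 (3.92), CBF4 (3.42), MYB60 (3.25), CBF1 (3.16) and WRKY39 (2.82). Of these genes ERF8, MYB16, LAF1, WRKY27 and MYB60 were farther from the summit than the other flanking gene. ERF8 was 991 bp away against 782 bp, MYB16 740 against 260 bp and LAF1 889 against 341 bp. The others were the nearer of their pair.

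The shares of wall and cell cycle genes had intervals that took in the 6.38% of all genes. XTH genes, which remodel xyloglucan, had 2 of 33 (6.06%, 0.743 to 20.2%), EXGT-A3 (also XTH27) with 7.38 (6.37 to 8.52) and XTH19 with 3.13. Expansins had 2 of 37 (5.41%, 0.661 to 18.2%), the pair named above, which flanked the same summit. ICK1 was the sole gene of 63 cyclins, cyclin-dependent kinases and their inhibitors (1.59%, 0.0402 to 8.53%). Photosystem and light-harvesting genes had 3 of 46, with PSAK at 3.03 and PSBO2 at 2.40 after PSI-P. Lists taken for comparison gave 3 of 21 histone genes, with HTA10 (4.26), HTA7 (2.33) and HTR12 (2.29), and 3 of 53 ribosomal protein genes, with ATL5 (also RPL5A, 5.46), RPL23AB (3.67) and RPS9 (2.47). PSAK, PSBO2, HTA7, HTR12 and ATL5 were each the farther of their pair. The share of histone genes was 14.3% (3.05 to 36.3%), no lower than the 12.5% of SAUR genes. Among genes that border a gap in which the rule could be met, it was 15% of 20 histone and 17.2% of 58 SAUR genes.

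Of the 4 genes in the title of the series none flanked a shared summit. TCP4 borders gaps of 3431 and 551 bp, PIF3 gaps of 3693 and 6446 bp, SAUR16 gaps of 3407 and 1016 bp and SAUR50 gaps of 3730 and 8103 bp. At PIF3 and SAUR50 both gaps are too long for any position to meet the rule.

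Apart from shared summits, most of the flanking genes had no summit near them. Of the 1751, 1396 (79.7%) had none inside the gene and no summit outside it within 1000 bp that was not shared. Further shared summits were not counted here, though 92 gaps held several and 41 genes had them on both sides. The share of 79.7% was not computed for other genes, so it is not read as a trait of flanking genes. In a gap of 1000 bp or less any summit is shared by the rule, and the median gap of shared summits was 824 bp. A summit inside the gene was listed for 242 (13.8%, exact 95% interval 12.2 to 15.5%), against 6.27% (5.97 to 6.57%) of the other 25693 genes and 6.75% of all. For 59 of the 242 the inside summits belonged to the same numbered peak as the shared summit, which left 183 (10.5%) with a summit of another peak. Flanking genes had a median length of 2239 bp and other genes of 2068 bp. If each shared summit were given to its nearer gene, 957 genes would be named and 794 (45.3% of the 1751) would not.

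Most gaps held a single shared summit (804 of 896), while 85 held 2 and 7 held 3. Neighbouring summits of the same gap were 50 to 763 bp apart, with a median of 222 bp. In 76 of the 92 gaps with several, the intervals of the highest and the lowest fold overlapped, and the ratio of these had a median of 1.19. The largest ratio, 3.77, was that between NAPRT2 and ICK1.

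Among the 7 gaps with 3 summits, the order of folds along the gap was not alike. Between AT5G55220 and MAP65-1, a microtubule-bundling protein gene, the outer summits had 4.45 and 4.09 and the middle one 2.34 (1.73 to 3.11), below the intervals of both. Between AT3G07890 and AT3G07900 the summit 275 bp from the latter had 5.10 (4.33 to 5.98), and the others 2.25 and 2.50. Between AT2G31730 and AT2G31740 the folds were 3.94, 4.68 and 2.32. At TPI, a triosephosphate isomerase gene, and PBL1, a receptor-like cytoplasmic kinase gene, they were 3.09, 2.91 and 2.35, and between AT4G27652 and AT4G27654 3.04, 3.46 and 3.42, with overlapping intervals in both gaps. The gap between CDSP32, a chloroplast thioredoxin gene, and SMT3 held 3 of the weakest summits, with 2.08, 1.70 and 1.83 over control levels of 37.4 to 49.0.

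At the limit of the rule, the summits just inside had their farther gene at 1000 bp (SIG4 and ZIF1, fold 3.17), 998 bp (AT1G77910 and TGA7, 6.78) and 997 bp (RBK2 and AT3G05150, 2.79). Just outside were summits at 1002 bp (DMP7 and HAE, 3.29), 1002 bp (LAX3 and AT1G77700, 2.16) and 1003 bp (ACI1 and AT5G01380, 3.55). Both sides of the limit thus held folds of like size, apart from the one at TGA7.

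Genes that code for no protein lay under shared summits about as often as their share of positions. Such a gene covered 42 shared summits (4.22%, 3.06 to 5.66%), and 4.34% of the positions that the rule allows, which the interval took in. Of the 42, 32 lay in a long non-coding RNA gene, 3 in a tRNA gene and none in a microRNA gene. Near 1 gene only, 4.52% (3.72 to 5.43%) of summits lay in such genes, which there cover 7.64% of positions. Beyond 1000 bp of any protein-coding gene, 6.12% of summits lay in such genes, which there cover 33.9% of positions.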

How the data were processed

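Anti-Myc ChIP-seq had been carried out on seedlings of Col and mTCP4, with 1 ChIP and 1 input library each. Bowtie 0.12.9, MACS2 2.1.1 and build TAIR10 are named in the submitters' processing notes. The sources used here do not state the calling threshold or how the inputs were used. The deposited list gives for each summit a pileup, which is a signal, a fold, which is a linear ratio, and p-values and q-values as −log10, per the file headers. Intervals run 5000 bp to each side of a summit and were not used as widths.

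The control level was recovered as (pileup + 1) / fold − 1, since MACS2 adds a pseudocount of 1. All pileups (100%) were whole multiples of 0.73689 within 0.01, and 1 step was taken as 1 fragment. Library totals were not analysed here. Genes came from a RefSeq table of TAIR10.1 (27444 protein-coding nuclear genes), used for names and distances. The share of summits inside genes was lowest at a shift of 0 bp among shifts up to 1000 bp. The table has no strand and no sequence was used here, so starts and ends of genes were not told apart and the planned results on gene orientation and on TCP motifs were not computed.

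Densities have exact Poisson intervals, shares exact (Clopper-Pearson) intervals and medians order-statistic intervals, all at 95%. They cover counting only, since neighbouring summits and genes are not replicates. The named genes are the flanking genes of the 12 highest shared summits, the like pairs, up to 3 genes per family, gaps with most summits, the genes of the series title and 3 summits on each side of the limit. Some further names, such as partners of these genes, were chosen after their values were seen. Members and lists were chosen with earlier results of these data known, and 37 genes of other kinds that matched a family's pattern by name were left out after the matches had been seen. Python 3.11.15, pandas 2.3.3 and scipy 1.17.1 were used.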

Additional observations from a re-analysis of the deposited data

How the results depend on the processing

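Of 49 values recomputed under 7 alternatives, 30 stayed within the interval of the reported value or within 1.5 times a count. Requiring a q of 1e-05 and keeping 1 summit per numbered peak moved none of the 7 results. The upper 50% of summits by fold left, by construction, 469 shared summits in 438 gaps with a median fold of 4.69 and 42.2% at a fold of 5 or more, and 17.2% of summits outside genes were shared. Summits at the lowest control level left 108 in 100 gaps, a share of 9.95%, a median fold of 3.62, 25.9% at a fold of 5 or more and a density 1.30 times that of the whole span. The positions counted were unchanged, so this lower density restates the smaller share of shared summits at that level. A limit of 500 bp gave 376 shared summits in 357 gaps (7.15%), and one of 2000 bp 2202 in 1803 gaps (41.9%), by construction. With all annotated genes the share was 24.6% and the density 1.80 times that of the whole span. The median fold of shared summits stayed below that of summits near 1 gene in each alternative, with differences of -0.0572 to -0.182, but in 4 of the 7 the interval of the shared median took in the other median (upper 50%, lowest control level, 500 bp and all annotated genes). Results on gene orientation and on motifs were not run, since strand and sequence were not used here. No paired analysis was possible because each group has 1 library. With 43 to 308 fragments at a shared summit, intervals of counting error end about 19.3% under and 22.6% over the fold.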

Other observations

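Genes with a shared summit on both sides numbered 41, and the names given here were chosen after their values were seen. TIFY10B (also JAZ2), a repressor of jasmonate response, lay between a summit with a fold of 2.36 on the side of AT1G74940 and 2 summits with 2.57 and 2.83 on the side of FAB1, a gene of fatty acid synthesis. PKS4, a phytochrome kinase substrate gene, was 155 bp from a summit towards MC9 with a fold of 4.98 (4.23 to 5.82), and 787 bp from another towards ACA3 with 3.04 (2.40 to 3.81). PSB27, a photosystem II assembly gene, had 2 summits on the side of AT1G03590 with 4.67 and 4.05, and 1 on the side of AT1G03610 with 3.43.

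By chromosome, allowed positions held 115 shared summits per Mb on chromosome 2 (95.3 to 136) and 156 on chromosome 3 (136 to 177), with 130 to 146 on the others. The median fold was 3.68 (3.33 to 3.93) on chromosome 2 and 3.22 (2.97 to 3.39) on chromosome 3, with 3.17 to 3.55 on the others. For density and for fold, the intervals of chromosomes 2 and 3 overlapped.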
